A study of Mus musculus with 12 samples.

Results

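The lipin family of the mouse liver, Lpin1, Lpin2 and Lpin3, was followed here by gene symbol, as 3 of the 22456 genes with a deposited expression value and as the skipped-exon (SE) events that carry these symbols. The lipins held 36 of 84592 SE events in the table that compares genotypes after fasting and 18 of 75694 in the table that compares them after refeeding. Livers came from adult male BALB/cByJ mice that were either homozygous for the spontaneous fatty liver dystrophy allele of Lpin1 (Lpin1-/-) or wild type littermates (Lpin1+/+), in a colony bred from heterozygotes. The mice were housed singly and fasted overnight for 16 hours. In the refed groups food was then returned for 5 hours, so refed livers were also taken later in the day. Each genotype was studied in both states, and each of the 4 groups held 3 mice with 1 library each. The allele is carried in every cell, so the liver was studied in a mouse that also lacks lipin 1 in fat and muscle.

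Lipins are phosphatidate phosphatases. They convert phosphatidic acid to diacylglycerol, the step before triglyceride, phosphatidylcholine and phosphatidylethanolamine are made, and they move between the cytosol, the endoplasmic reticulum and the nucleus. Lipin 1 also acts in the nucleus as a partner of PGC-1α and PPARα, and its hepatic mRNA is known to respond to fasting, glucocorticoids and cAMP, whereas lipin 2 is a major lipin protein of liver and lipin 3 is better known from intestine. In GRCm38, with the gene models of GENCODE M21, Lpin1 lies on the minus strand of chromosome 12 (chr12:16535669-16610966), Lpin2 on the plus strand of chromosome 17 (chr17:71182560-71249817) and Lpin3 on the plus strand of chromosome 2 (chr2:160880670-160906002).

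Reference sequences of 3 coding exons among the events are shown first, 5′ to 3′ on the strand of the gene, from the GENCODE M21 transcripts. The 99-base exon 6 of Lpin1 (chr12:16571164-16571262, minus strand) is present in lipin 1β and absent from lipin 1α, and capitals mark its first 3 bases, which a 96-base form among the events lacks.
Lpin1 99-base exon: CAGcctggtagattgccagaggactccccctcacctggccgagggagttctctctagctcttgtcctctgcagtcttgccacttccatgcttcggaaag
The 115-base exon 18 of Lpin2 (chr17:71245119-71245233, plus strand) is shown because its skipping differed between fasted genotypes, and its length is not a multiple of 3.
Lpin2 115-base exon: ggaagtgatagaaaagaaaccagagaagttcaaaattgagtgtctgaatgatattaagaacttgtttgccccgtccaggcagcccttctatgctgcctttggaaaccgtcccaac
The 123-base exon 12 of Lpin3 (chr2:160901628-160901750, plus strand) is shown because it and its shorter form came nearest to the threshold among the Lpin3 events. Capitals mark the 30 bases at its start that the 93-base form of the same exon (chr2:160901658-160901750) lacks.
Lpin3 123-base exon: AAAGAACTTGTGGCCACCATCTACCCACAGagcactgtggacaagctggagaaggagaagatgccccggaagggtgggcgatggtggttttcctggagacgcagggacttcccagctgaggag

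Expression was deposited as RPKM, reads scaled to the length of a gene and to the depth of its library. The low values fall on whole reads, which put the libraries at an estimated 94 M to 125.6 M reads and gave the reads behind each lipin value. The RPKM of the lipins corresponds to coding length (2772 bases in Lpin1, 3015 in Lpin2, 2574 in Lpin3): in 31.5% of 2800 genes of low level the coding length returned 1 common depth, against 2.14% with the full exon length. Hepatocyte markers (Alb, Apoa1, Ttr, Serpina1a, Cps1) summed to between 32028 and 72285 RPKM in the 12 libraries. Labels name no batch, and the libraries were spread over sequencing lanes. In bulk liver, a change in the number of cells and a change in RNA per cell cannot be told apart.

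Lpin1 was the check of the genotype, and its coding reads were nearly absent from Lpin1-/- liver. In fasted Lpin1-/- liver Lpin1 was at 0.0597, 0.0566 and 0.0368 RPKM, from 17, 17 and 11 reads. After refeeding the same genotype had 0.00573, 0.0238 and 0.00962 RPKM, from 2, 8 and 3 reads. Every Lpin1-/- library lay below every Lpin1+/+ library, so the genotype labels held in all 12.

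In fasted Lpin1+/+ liver Lpin1 was at 22.0, 0.726 and 1.76 RPKM, from 6629, 206 and 511 reads. Refed Lpin1+/+ liver had 2.92, 0.784 and 2.76 RPKM, from 762, 256 and 903 reads. Replicate 1 of the fasted Lpin1+/+ group thus stood 17.7-fold above the mean of the other 2 libraries of its group, and it set the group mean of 8.15 ± 12.0 RPKM (SD, n = 3).

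The mean of the Lpin1-/- libraries was 0.626% of the Lpin1+/+ mean after fasting and 0.605% after refeeding. The fasted value rests on 1 library: without fasted Lpin1+/+ replicate 1 it was 4.11%. The highest Lpin1-/- library reached 8.23% of the lowest Lpin1+/+ library after fasting and 3.03% after refeeding. On the log2(RPKM + 1) scale, which understates the change of low genes, Lpin1 was lower in fasted Lpin1-/- liver by a log2 fold change of -2.19 ± 0.72 (SE), with a limma adjusted p = 0.0562 over 11507 genes. Refed liver gave -1.55 ± 0.72 with a limma adjusted p = 0.231. Neither passed the threshold of 0.05, which 18.8% of genes did after fasting and 6.67% after refeeding. The SE is pooled over the 4 groups, so the refed comparison also carries the spread of fasted Lpin1+/+ liver. With only the refed libraries in the fit, Lpin1 passed the threshold between refed genotypes. The absence of overlap between genotypes was shared by 32.9% of genes after fasting and 33.9% after refeeding. With a pseudocount of 0.1 in place of 1 the differences were -4.42 (limma adjusted p = 0.00797) and -4.13 (limma adjusted p = 0.0268). Without fasted Lpin1+/+ replicate 1 the fasted value was -1.05 (limma adjusted p = 0.045), and without replicate 2 of that group it was -2.92 (limma adjusted p = 0.0154).

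**Figure D1:**
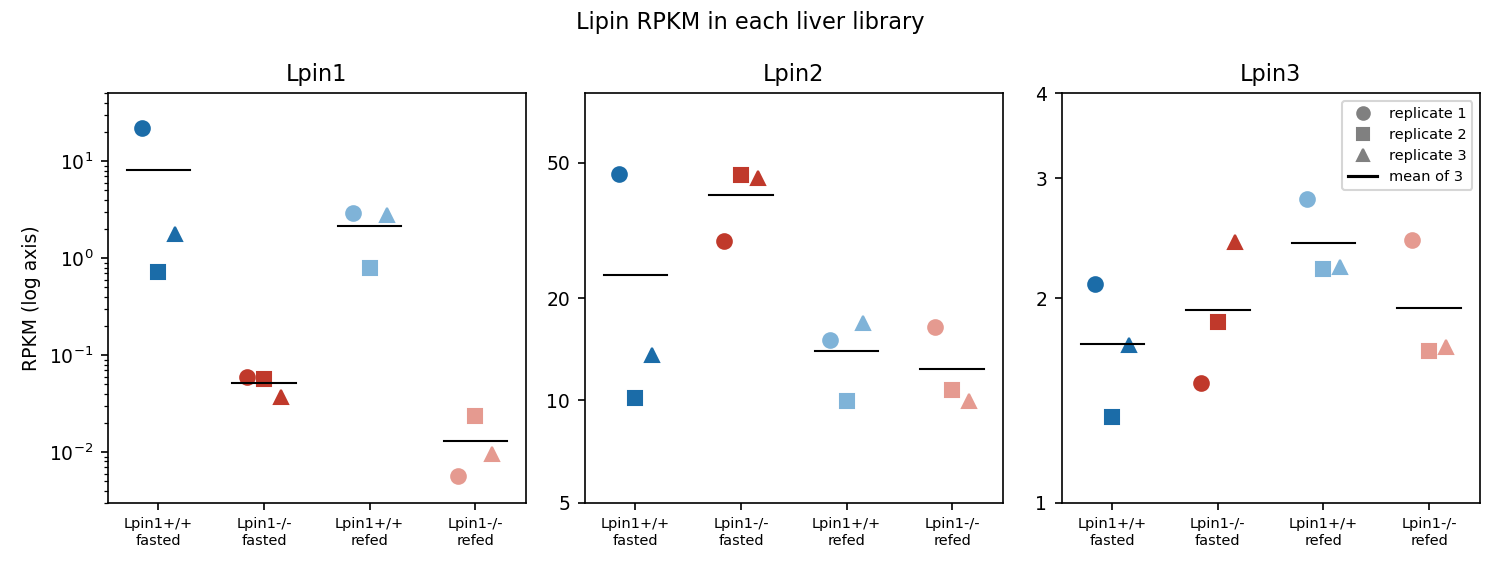
RPKM of Lpin1, Lpin2 and Lpin3 (log axes, 1 scale per gene) in each of the 12 liver libraries, with symbols for replicate numbers and a line at the mean of 3. Lpin1 was at 0.0597 RPKM or below in all 6 Lpin1-/- libraries, and fasted Lpin1+/+ replicate 1 was the highest library of its group for all 3 genes.

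Feeding state did not separate Lpin1 in Lpin1+/+ liver. The ranges of the fasted and refed libraries overlapped, and the difference of refed over fasted was -0.69 ± 0.72 (limma adjusted p = 0.72). This direction rested on 1 library: without fasted Lpin1+/+ replicate 1 it turned to 0.45 (limma adjusted p = 0.425). In Lpin1-/- liver the 3 refed libraries lay below the 3 fasted ones, an absence of overlap that 46.8% of genes shared, at counts of 2 to 8 against 11 to 17 reads, and the difference on the log2(RPKM + 1) scale was -0.05 ± 0.72 (limma adjusted p = 0.963).

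Fasted Lpin1+/+ replicate 1 was also the highest of its group in most genes of fasting and glucocorticoid signaling. It was above both other libraries of its group in 14 of 15 such genes, with a median ratio of 3.23 to their mean. Over all 11507 genes the same library was above both others in 55.4%, with a median ratio of 1.23. Per1, a clock gene induced by glucocorticoids, was at 13.6, 2.07 and 0.521 RPKM in the 3 fasted Lpin1+/+ libraries. Fkbp5, a chaperone that binds the glucocorticoid receptor, was at 65.1, 6.22 and 12.2 RPKM. Tat, which degrades tyrosine, was at 1754, 302.6 and 300.04 RPKM, and Pck1, which catalyzes a committed step of gluconeogenesis, at 2802, 839.04 and 548.6 RPKM. Fgf21, a hormone secreted in fasting, went the other way, at 10.8, 31.0 and 43.6 RPKM. The list also holds the lipogenic enzymes Fasn, at 10.3, 3.31 and 4.50 RPKM, and Scd1, at 177, 39.2 and 50.3 RPKM, which were highest in the same library. The part of this library's state in the Lpin1 and Lpin2 values was not tested.

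**Figure D2:**
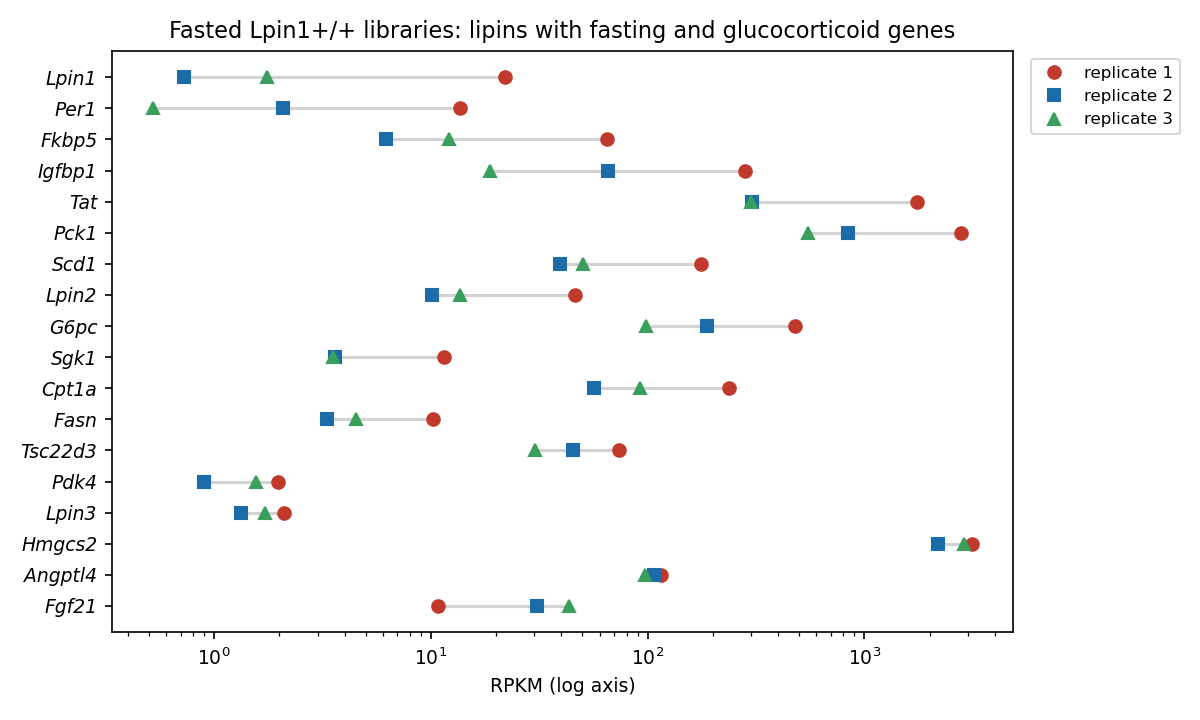
RPKM (log axis) of the 3 lipins and of 15 fasting and glucocorticoid genes in the 3 fasted Lpin1+/+ libraries, ordered by the ratio of replicate 1 to the mean of the other 2. Lpin1 has the highest ratio (17.7), Lpin2 lies between Scd1 and G6pc (3.9), and Fgf21 is at the bottom (0.289).

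Reads on single exons showed where the remaining Lpin1 transcript of the Lpin1-/- liver lay. The events list inclusion reads (on an exon or its junctions) and skipping reads (on the junction that leaves it out) for the 3 libraries of a group without replicate numbers, and values are given in the listed order. A noncoding exon of 144 bases (chr12:16584508-16584651, exon 2 of transcript Lpin1-207, in the 5′ UTR) lies upstream of the exon with the annotated start codon (chr12:16580893-16580895). It had 171, 26 and 10 inclusion reads in fasted Lpin1+/+ liver and 184, 380 and 749 in fasted Lpin1-/- liver. After refeeding it had 29, 13 and 28 inclusion reads in Lpin1+/+ and 465, 257 and 160 in Lpin1-/- liver. All Lpin1-/- libraries were above all Lpin1+/+ libraries in both states. The share of all exon events whose reads separate the genotypes in this way was not counted. Per 100 M event counts of a library, the mean was 10.3 in Lpin1+/+ and 67.0 in Lpin1-/- liver after fasting and 5.47 and 51.7 after refeeding, a ratio of 6.53 and 9.46. The fasted ratio was 21.4 without the first listed Lpin1+/+ library and between 4.43 and 8.17 without any other library, and the refed ratio stayed between 6.79 and 12.3. The exact permutation test (two-sided, 3 against 3 libraries) gave p = 0.1 in each state, the smallest it can give.

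Downstream of the start codon the same libraries were almost empty. The coding 99-base exon shown above had 558, 14 and 33 inclusion reads in fasted Lpin1+/+ liver and 1, 2 and 0 in fasted Lpin1-/- liver. After refeeding it had 46, 8 and 73 in Lpin1+/+ and 0, 1 and 0 in Lpin1-/- liver. An unannotated 111-base exon further downstream (chr12:16552963-16553073) was mostly skipped, by 310, 13 and 28 junction reads in fasted Lpin1+/+ liver and by 1, 0 and 0 in fasted Lpin1-/- liver. Refed liver had 36, 17 and 40 such reads in Lpin1+/+ and 2, 0 and 0 in Lpin1-/-. The listed reads of Lpin1-/- liver were thus on the exon before the start codon, and they outnumbered the 2 to 17 reads behind the RPKM, which corresponds to coding length.

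**Figure D3:**
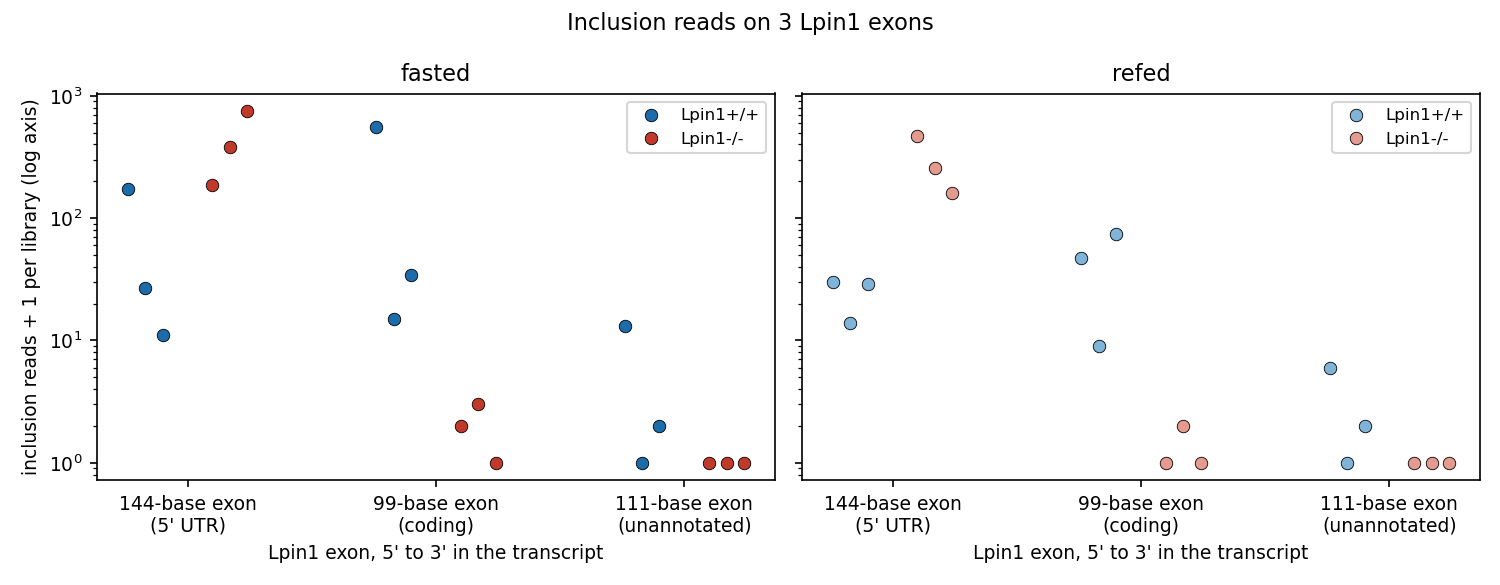
Inclusion reads plus 1 (log axis) on 3 Lpin1 exons in their order along the transcript, for each of the 3 Lpin1+/+ and 3 Lpin1-/- libraries, after fasting (left) and refeeding (right). The Lpin1-/- libraries held 160 to 749 reads on the 144-base exon and 0 to 2 on the exons of 99 and 111 bases.

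Junction reads gave the same picture on the 5′ side of the 144-base exon. A 97-base exon that lies before it (chr12:16589498-16589594) was listed after refeeding, and its skipping reads join the first exon (chr12:16589718-16589770) directly to the 144-base exon. These were 13, 6 and 6 in refed Lpin1+/+ and 143, 108 and 69 in refed Lpin1-/- liver. Inclusion reads of the 97-base exon were 0, 2 and 1 against 32, 12 and 11. Both kinds of reads were higher in every Lpin1-/- library, and the share of the 97-base exon was not tested because the Lpin1+/+ counts were under the minimum of 10 in some libraries.

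Skipping of the 144-base exon, a junction of the first exon with the start codon exon, had 74, 0 and 4 reads in fasted Lpin1+/+ liver and 7, 2 and 4 in refed Lpin1+/+ liver. It had 0 reads in all 6 Lpin1-/- libraries, which allows at most between 0.401% and 1.88% of reads in a library, for counting error only. After correction for the length of each form, the listed reads put inclusion at 62.4% ± 32.6 (SD, n = 3) in fasted and 64.6% ± 6.59 (SD, n = 3) in refed Lpin1+/+ liver. They put it at 100% in both Lpin1-/- groups. The log2 ratio of inclusion to skipping of this exon was higher in Lpin1-/- liver by 6.83 ± 1.12 after fasting (limma adjusted p = 0.00258) and by 6.71 ± 0.61 after refeeding (limma adjusted p = 0.00748). The skipping junction ends in the start codon exon, and coding reads were nearly absent from Lpin1-/- liver. The share and the ratio therefore cannot tell a change in exon choice from the absence of downstream reads. Of all events tested, 11.3% passed after fasting and 0.97% after refeeding. The median difference of all events was -0.58 after fasting and -0.21 after refeeding. Lower inclusion in Lpin1-/- liver made up 5439 of the 7892 fasted calls and 534 of the 633 refed calls. One fasted Lpin1+/+ library, with 26 inclusion and 0 skipping reads, was also at 100%, and a log ratio without skipping reads grows with the number of inclusion reads. The refed call was lost when any 1 of the 6 libraries was left out (limma adjusted p between 0.0589 and 0.091).

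The choice between lipin 1β and lipin 1α, which the 99-base exon makes, could be read only in Lpin1+/+ liver. Its skipping reads were 36, 2 and 1 after fasting and 8, 1 and 6 after refeeding, which put inclusion at 84.5% ± 9.66 (SD, n = 3) and 76.6% ± 6.57 (SD, n = 3). Lpin1-/- liver had 1 skipping read in 1 of 6 libraries, so no comparison of genotypes was made. The 96-base form, listed after fasting, had 414, 10 and 14 inclusion reads in Lpin1+/+ liver, most of which it shares with the 99-base form. Of the 4 Lpin1 events in each table, 1 passed the count minimum in each, the 144-base exon.

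Lpin2 had the highest RPKM of the 3 lipins in each of the 12 libraries, and its level in Lpin1-/- liver followed feeding. In fasted Lpin1-/- liver it was at 29.5, 46.1 and 45.0 RPKM. Refed Lpin1-/- liver had 16.4, 10.8 and 9.98 RPKM. The groups did not overlap, as in 46.8% of genes. Lpin2 was lower after refeeding by a log2 fold change of -1.62 ± 0.45 (limma adjusted p = 0.0272), the only lipin expression difference past the threshold, in a comparison where 20.7% of genes passed. All genes had a median of 0.25 in this comparison, -0.03 after rescaling each library by its median ratio, and Lpin2 was then at -1.98 (limma adjusted p = 0.00793). The call was lost without replicate 2 or 3 of the fasted Lpin1-/- group (limma adjusted p = 0.0812 and 0.0662) and without replicate 2 or 3 of the refed Lpin1-/- group (limma adjusted p = 0.0898 and 0.0848).

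Between genotypes after fasting, Lpin2 was compared to see whether the other lipins rose where Lpin1 was missing. Fasted Lpin1+/+ liver was at 46.4, 10.2 and 13.6 RPKM, so its replicate 1 was above all Lpin1-/- libraries and the other 2 were below them. The difference was 1.03 ± 0.45, with a 95% interval from 0.04 to 2.02 and a limma adjusted p = 0.136. It did not pass the threshold. Without fasted Lpin1+/+ replicate 1 the difference was 1.66 (limma adjusted p = 0.00533), and without replicate 2 of that group it was 0.62 (limma adjusted p = 0.349). Replicate 1 was also high in glucocorticoid genes. All fasted Lpin1-/- libraries were above it in Per1 and below it in Pck1 and Fkbp5. In Tat they lay on both sides of it, at 981, 2111 and 3679 RPKM against 1754. The part of this library's state in the Lpin2 difference was not tested. Rescaling each library by its median ratio gave 1.24 (limma adjusted p = 0.0467), beside a median of all genes of -0.14 before and 0.01 after rescaling.

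After refeeding no difference of Lpin2 between genotypes was detectable. Refed Lpin1+/+ liver was at 15.1, 9.99 and 16.9 RPKM, overlapping the refed Lpin1-/- values, and the difference was -0.16 ± 0.45, with a 95% interval from -1.16 to 0.83 (limma adjusted p = 0.862). In Lpin1+/+ liver the difference of refed over fasted Lpin2 was -0.43 ± 0.45 (limma adjusted p = 0.721), in a comparison where 1.72% of genes passed, and without fasted Lpin1+/+ replicate 1 the value was 0.20 (limma adjusted p = 0.706). The difference between the genotypes in their response to feeding, tested as an interaction, was -1.20 ± 0.64 for Lpin2 (limma adjusted p = 0.352), 0.63 ± 1.02 for Lpin1 (limma adjusted p = 0.761) and -0.32 ± 0.27 for Lpin3 (limma adjusted p = 0.531). Of all genes, 1.28% passed this test. The comparisons share libraries, so the Lpin2 values of fasted Lpin1-/- liver enter 3 of them.

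The mean of Lpin2 was highest with fasted Lpin1-/- liver, at 40.2 ± 9.32 RPKM (SD, n = 3). Fasted Lpin1+/+ liver followed with 23.38 ± 19.996, refed Lpin1+/+ liver with 14.01 ± 3.60, and refed Lpin1-/- liver was lowest with 12.4 ± 3.53. The libraries of each neighbouring pair in this order overlapped. Without replicate 1 fasted Lpin1+/+ liver had a mean of 11.9 RPKM, the lowest of the 4 groups.

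**Figure D4:**
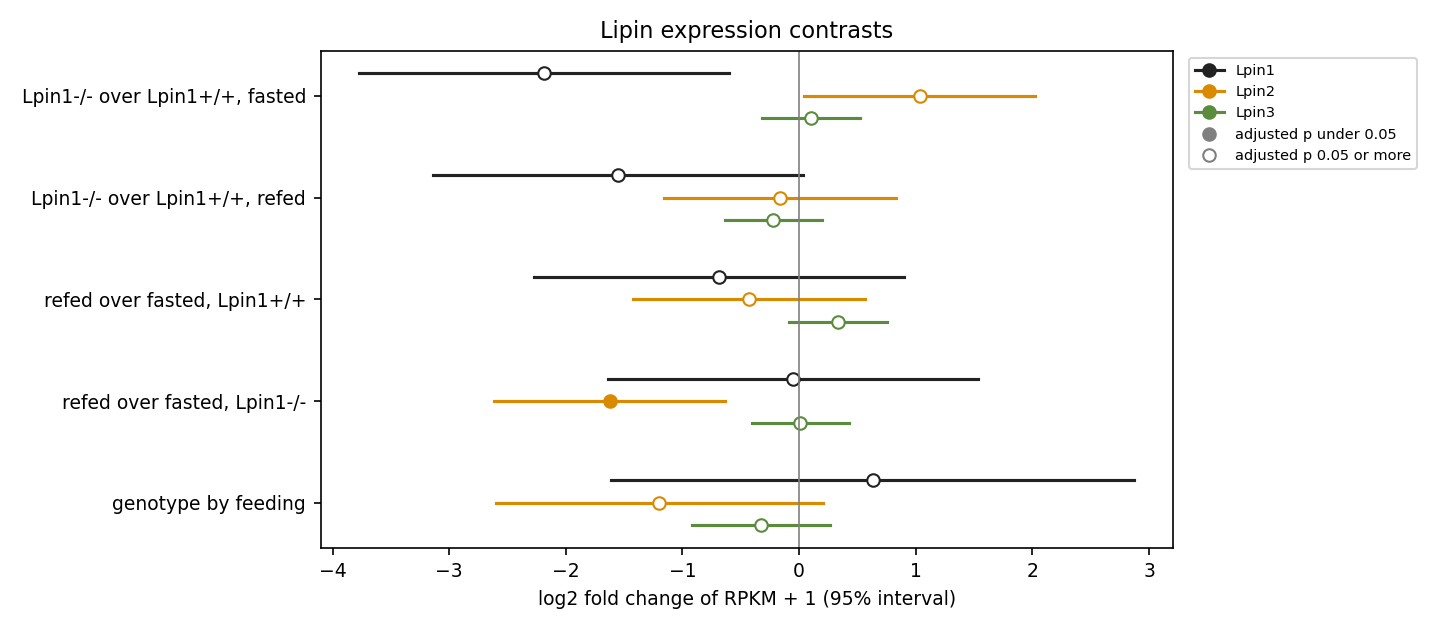
Log2 fold changes of RPKM + 1 for the 3 lipins in the 4 comparisons and their interaction, with 95% intervals from 1 limma fit of 12 libraries. Only the point of Lpin2 for refed over fasted Lpin1-/- liver is filled (adjusted p = 0.0272, limma), and the Lpin1 intervals are the widest.

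Lpin3 was low in all libraries, and none of its differences passed the threshold in limma. It was at 2.10, 1.34 and 1.71 RPKM in fasted Lpin1+/+ liver and at 1.498, 1.84 and 2.42 in fasted Lpin1-/- liver. Its level was 2.79, 2.21 and 2.22 RPKM in refed Lpin1+/+ and at 2.44, 1.67 and 1.69 in refed Lpin1-/- liver. The genotypes overlapped in both states, with differences of 0.10 ± 0.19 after fasting (95% interval from -0.31 to 0.52, limma adjusted p = 0.746) and -0.22 ± 0.19 after refeeding (95% interval from -0.64 to 0.20, limma adjusted p = 0.528). The 3 refed Lpin1+/+ libraries were above the 3 fasted ones, as in 18.1% of genes in that comparison when either direction is counted, and the difference was 0.33 ± 0.19 (limma adjusted p = 0.475). In Lpin1-/- liver it was 0.01 ± 0.19 (limma adjusted p = 0.977), and rescaling turned this to -0.23 (limma adjusted p = 0.303).

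Per length of coding sequence, Lpin2 made up 76.2% ± 9.15 (SD, n = 3) of the summed lipin RPKM in fasted Lpin1+/+ and 75.6% ± 2.63 in refed Lpin1+/+ liver. In Lpin1-/- liver its share was 95.3% ± 0.665 after fasting and 86.3% ± 0.833 after refeeding, with nearly all of the remainder from Lpin3 (4.59% ± 0.665 and 13.6% ± 0.819). Lpin1 made up 15.8% ± 13.5 of the sum in fasted Lpin1+/+ and 10.9% ± 4.26 in refed Lpin1+/+ liver, so that in Lpin1+/+ liver the order of Lpin1 and Lpin3 was not fixed. After fasting the summed lipin RPKM was 33.2 ± 32.3 with Lpin1+/+ and 42.2 ± 9.66 with Lpin1-/-. Without replicate 1 the fasted Lpin1+/+ sum was 14.6 and the share of Lpin1 in it 8.12%. After refeeding the sums were 18.6 ± 4.87 and 14.3 ± 3.95.

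Across the 6 Lpin1+/+ libraries, log2(RPKM + 1) of Lpin1 and Lpin2 ran together (Pearson r = 0.997, Spearman rho = 0.886), a description that rests largely on fasted replicate 1 and on libraries that share their depth for both genes. In the 6 Lpin1-/- libraries, where Lpin1 had 2 to 17 reads, r was 0.77, and over all 12 libraries it was 0.237. Lpin3 ran with neither, with r of 0.268 to Lpin1 and 0.21 to Lpin2 over the 12 libraries.

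The genes whose pattern over the 12 libraries was most like that of Lpin1 were Sox6 (r = 0.963), Acss2 (0.934), Tbc1d30 (0.932), Tenm3 (0.921) and Capn3 (0.921). Their Spearman rho was 0.755, 0.923, 0.93, 0.727 and 0.881 in the same order. Acss2, which makes acetyl-CoA from acetate, was at 28.4, 13.2 and 18.3 RPKM in fasted Lpin1+/+ and 9.35, 7.76 and 9.12 in fasted Lpin1-/- liver. Over the 6 Lpin1+/+ libraries, where r rests largely on fasted replicate 1, the leading genes were Snx29 (r = 0.999), Dhtkd1 (0.998), Lpin2 itself (0.997), Slc38a2 (0.995) and Tacc2 (0.994).

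For Lpin2 they were Cbx2 (r = 0.949), Dnmbp (0.934), Foxo3 (0.932), Hps4 (0.921) and Phf13 (0.92) over the 12 libraries. Foxo3, a transcription factor active in fasting, was at 8.59, 1.51 and 2.65 RPKM in fasted Lpin1+/+ and 12.1, 15.5 and 23.0 in fasted Lpin1-/- liver, with replicate 1 again the highest of the Lpin1+/+ group. For Lpin3 they were Champ1 (r = 0.925), Ighmbp2 (0.906), Dennd2a (0.904), Fan1 (0.898) and Sart3 (0.893), all at low levels.

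Most listed Lpin2 exons were included in nearly all transcripts. Of its 23 events after fasting, 18 had at least 90% inclusion in every library and 3 had at most 10%, and all 23 passed the count minimum. After refeeding it had 6 events, all tested, none past the threshold in limma and none with a raw p below 0.05. Among the exons with the most reads of both forms, an unannotated 231-base exon (chr17:71223783-71224013) had 13, 2 and 3 inclusion reads in fasted Lpin1+/+ and 0, 7 and 7 in fasted Lpin1-/- liver, beside 107 to 555 and 232 to 418 skipping reads. A 151-base exon (chr17:71242044-71242194) had 11, 3 and 1 against 2, 5 and 5 inclusion reads. Exon 3 (chr17:71222055-71222150, 96 bases) was skipped by 10, 3 and 1 reads in fasted Lpin1+/+ and by 6, 6 and 8 in fasted Lpin1-/- liver, beside 215 to 1378 and 535 to 1034 inclusion reads. None of these differed between genotypes past the threshold in either state.

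Skipping of the 115-base coding exon shown above was seen only in the fasted Lpin1-/- libraries of the fasted table. Between exon 17 and exon 19 it had 1756, 443 and 592 inclusion reads and 0 skipping reads in each fasted Lpin1+/+ library, which allows at most between 0.171% and 0.677% of reads. That limit is a share of reads before correction for length, so it is not on the scale of the inclusion below. Fasted Lpin1-/- liver had 1362, 1992 and 1880 inclusion reads and 39, 40 and 13 skipping reads. Inclusion after correction for the length of each form was 95.3% ± 2.69 (SD, n = 3) in fasted Lpin1-/- and 100% in fasted Lpin1+/+ liver. The log2 ratio differed by -4.64 ± 0.86 (limma adjusted p = 0.00469), beside a median of -0.58 over all tested fasted events. The call held whichever of the 6 libraries was left out, with differences from -5.23 to -4.05. It also held with 1 added to each count, at -3.67 (limma adjusted p = 0.00595). The size of this difference depends on the added count and on the number of inclusion reads, because no fasted Lpin1+/+ library had a skipping read. A second event that pairs the same exon with one further downstream (from chr17:71246827) had 9, 13 and 0 skipping reads in fasted Lpin1-/- liver and 0 in fasted Lpin1+/+, with a difference of -1.89 ± 1.20 (limma adjusted p = 0.345). Without the fasted Lpin1-/- library listed last, that difference was -3.47 (limma adjusted p = 0.0273). Without the first listed fasted Lpin1+/+ library it was -1.30 (limma adjusted p = 0.649), and with 1 added to each count -1.27 (limma adjusted p = 0.419). The refed table does not list this exon.

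The other Lpin2 exon past the threshold has 51 bases (chr17:71229819-71229869) and is exon 6 of Lpin2-207, after the stop codon of that short transcript. It had 1, 1 and 0 inclusion reads in fasted Lpin1+/+ and 14, 17 and 15 in fasted Lpin1-/- liver, beside 561, 111 and 130 and 196, 469 and 453 skipping reads. Inclusion was 0.205% ± 0.271 (SD, n = 3) and 2.60% ± 1.14 (SD, n = 3), and the log2 ratio differed by 3.14 ± 0.80 (limma adjusted p = 0.0247). The call was lost without the first or the last listed fasted Lpin1+/+ library (limma adjusted p = 0.11 and 0.0996) and without the first or second listed fasted Lpin1-/- library (limma adjusted p = 0.105 and 0.0823). In fasted liver 3 of 30 tested lipin events passed and in refed liver 1 of 13, beside the 11.3% and 0.97% of all events. The refed call, and 1 of the 3 fasted calls, was the noncoding Lpin1 exon upstream of the start codon. Its ratio cannot tell a change in exon choice from the absence of downstream reads. Its refed call was lost whichever library was left out, and no Lpin2 or Lpin3 event passed after refeeding.

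Lpin3 events rested on few reads. Of 9 events after fasting and 8 after refeeding, 6 and 6 passed the count minimum, and none passed the threshold in limma, with 2 and 1 at a raw p below 0.05. The 123-base exon shown above had 34, 24 and 19 inclusion and 1, 0 and 0 skipping reads in fasted Lpin1+/+, against 12, 20 and 44 inclusion and 3, 6 and 1 skipping reads in fasted Lpin1-/- liver (difference -2.35 ± 0.87, limma adjusted p = 0.107). Its 93-base form shares the skipping reads and gave -2.48 ± 0.86 (limma adjusted p = 0.0863). Exon 19 (chr2:160905003-160905106, 104 bases) had 0 skipping reads in fasted Lpin1+/+ and 2, 8 and 0 in fasted Lpin1-/- liver (difference -1.97 ± 0.96, limma adjusted p = 0.218). Without the fasted Lpin1-/- library listed last these differences were -3.39, -3.45 and -3.15 (limma adjusted p = 0.0145, 0.015 and 0.0227). In a fit of all 12 libraries, possible for events in both tables, the 123-base exon and its 93-base form also passed after fasting (limma adjusted p = 0.047 and 0.0358). Among Lpin3 exons with reads of both forms, unannotated exons of 154 and 207 bases that begin at chr2:160891722 had 1, 0 and 3 and 1, 0 and 2 inclusion reads in fasted Lpin1+/+ and 0, 5 and 4 and 1, 8 and 7 in fasted Lpin1-/- liver, too few to test. After refeeding the 87-base exon 16 (chr2:160903924-160904010) had 1 skipping read in 1 Lpin1+/+ library and 0 in the others.

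Enzymes around the lipin step were compared as a list of 27 that make or use phosphatidic acid or diacylglycerol, of which 25 passed the filter on low values. After fasting 11 of 25 differed between genotypes, 4 higher and 7 lower in Lpin1-/- liver, beside 18.8% of all genes. Their median was -0.29, and that of all genes -0.14. After refeeding 3 of 25 differed, 2 higher and 1 lower, beside 6.67%, with a median of 0.04 against -0.07.

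At the entry to the pathway, Gpat4, a glycerol-3-phosphate acyltransferase of the endoplasmic reticulum, was at 90.8, 66.1 and 84.4 RPKM in fasted Lpin1+/+ and 198, 260.004 and 279 in fasted Lpin1-/- liver. It was higher in Lpin1-/- liver after fasting (1.60 ± 0.25, limma adjusted p = 0.00167) and after refeeding (1.88 ± 0.25, limma adjusted p = 0.0021). The genotypes did not overlap in either state, as in 32.9% of genes after fasting and 33.9% after refeeding. Of the lysophosphatidate acyltransferases, which complete phosphatidic acid, Agpat5 was higher (1.02 ± 0.21, limma adjusted p = 0.0071) and Agpat1, Agpat2 and Agpat3 lower (-0.87, -0.95 and -0.92; limma adjusted p = 0.0327, 0.0203 and 0.036) in fasted Lpin1-/- liver. The calls of Agpat1, Agpat2 and Agpat3 were each lost in 4 or 5 of the 12 fits that left out 1 library.

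The membrane lipid phosphate phosphatases can also remove phosphate from phosphatidic acid, and they moved both ways. Plpp3 was at 77.4, 39.2 and 58.5 RPKM in fasted Lpin1+/+ and 7.96, 18.2 and 23.2 in fasted Lpin1-/- liver (-1.83 ± 0.35, limma adjusted p = 0.00487). Plpp5 was lower in Lpin1-/- liver in both states, by -1.59 ± 0.32 after fasting (limma adjusted p = 0.00675) and -1.82 ± 0.32 after refeeding (limma adjusted p = 0.00926). Plpp1 was higher after fasting (1.20 ± 0.27, limma adjusted p = 0.0119).

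Of the enzymes that use diacylglycerol, the ethanolamine phosphotransferase Ept1 (Selenoi) was at 15.6, 6.09 and 9.72 RPKM in fasted Lpin1+/+ and 2.79, 3.38 and 3.01 in fasted Lpin1-/- liver (-1.42 ± 0.28, limma adjusted p = 0.0058), and Cept1 was lower as well (-0.88 ± 0.22, limma adjusted p = 0.0194), a call lost without fasted Lpin1+/+ replicate 3 or fasted Lpin1-/- replicate 1 or 2 (limma adjusted p = 0.0645, 0.0654 and 0.0553). Dgke, a diacylglycerol kinase, was higher (1.17 ± 0.16, limma adjusted p = 0.000854). Dgat1, which makes triglyceride, was higher in refed Lpin1-/- liver (0.68 ± 0.15, limma adjusted p = 0.0208), a call lost without any single refed library except replicate 1 of the Lpin1-/- group. Dgat2 and Gpam did not pass in either state.

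**Figure D5:**
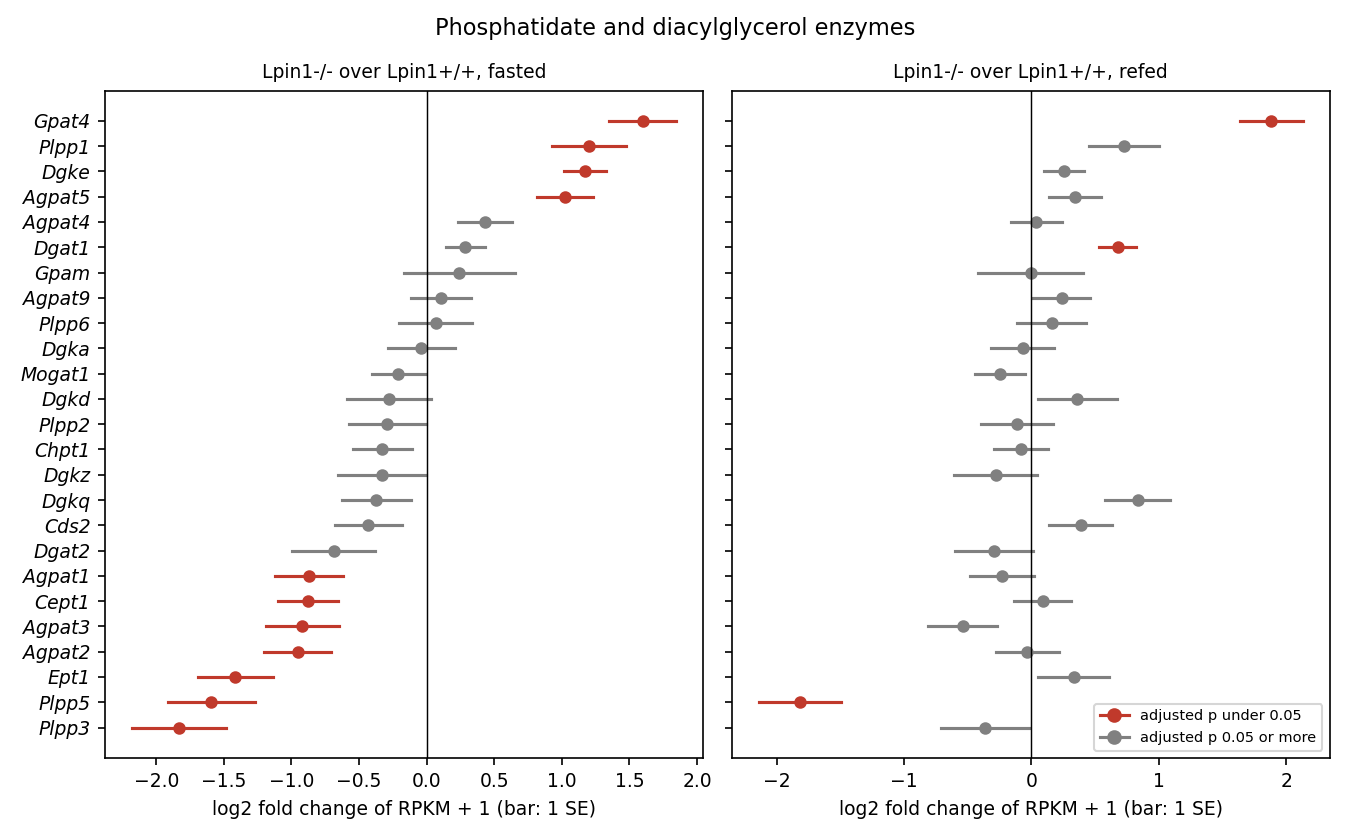
Log2 fold changes of RPKM + 1 (points) with 1 SE (bars) for 25 enzymes of phosphatidate and diacylglycerol metabolism, Lpin1-/- over Lpin1+/+, after fasting (left) and refeeding (right), with adjusted p under 0.05 in red. The 11 red points of fasted liver run from -1.83 (Plpp3) to 1.60 (Gpat4), and 3 points are red in refed liver.

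Refeeding changed 7 of the 25 enzymes in Lpin1-/- liver, 6 upward and 1 downward, beside 20.7% of all genes, and their median was 0.33 against 0.25 over all genes. Agpat1 rose by 1.82 ± 0.25 (limma adjusted p = 0.00111), Ept1 by 1.68 ± 0.28 (limma adjusted p = 0.00265) and Dgkq by 1.39 ± 0.25 (limma adjusted p = 0.00436). Plpp3 rose by 1.21 ± 0.35 (limma adjusted p = 0.0302), which rescaling brought to 0.87 (limma adjusted p = 0.0695). Dgke was the enzyme that fell, by 0.79 on the log2 scale (limma adjusted p = 0.00612). In Lpin1+/+ liver 1 of 25 passed, beside 1.72% of all genes. It was Agpat1 (1.18 ± 0.25, limma adjusted p = 0.0384), a call lost with a pseudocount of 0.1 (limma adjusted p = 0.0839) after rescaling (limma adjusted p = 0.0604) and in 10 of the 12 fits that left out 1 library. None of the 25 passed the interaction test in limma, and 8 had a raw p below 0.05.

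Of 13 regulators and partners of lipins, 3 differed between genotypes after fasting and 1 after refeeding, beside 18.8% and 6.67% of all genes, with medians of -0.33 and -0.09 beside -0.14 and -0.07 over all genes. Cnep1r1, the regulatory subunit of the phosphatase that removes phosphate from lipins, was at 13.2, 16.0 and 15.0 RPKM in fasted Lpin1+/+ and 8.73, 8.70 and 8.72 in fasted Lpin1-/- liver (-0.69 ± 0.16, limma adjusted p = 0.0143), and the catalytic subunit Ctdnep1 did not pass (limma adjusted p = 0.256). Tra2b, a splicing factor known to act on the lipin 1β exon, was at 12.6, 11.1 and 13.0 RPKM against 24.2, 18.2 and 19.6 (0.70 ± 0.17, limma adjusted p = 0.0153). Ywhae, a 14-3-3 protein of the family that holds phosphorylated lipin 1 in the cytosol, differed by -0.70 ± 0.19 (limma adjusted p = 0.0234). The calls of Cnep1r1 and Ywhae were lost after rescaling (-0.51 and -0.50, limma adjusted p = 0.0969 and 0.0589), and that of Tra2b without fasted Lpin1-/- replicate 1 (limma adjusted p = 0.0517). None of the 3 held in all 12 fits that left out 1 library.

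Srebf2, which drives sterol synthesis genes, was at 15.0, 14.6 and 13.6 RPKM in refed Lpin1+/+ and 6.53, 4.42 and 4.56 in refed Lpin1-/- liver (-1.33 ± 0.27, limma adjusted p = 0.016). This call was lost without refed Lpin1+/+ replicate 1 or refed Lpin1-/- replicate 2 or 3 (limma adjusted p = 0.0563, 0.0658 and 0.0698). Ppargc1a, the coactivator that lipin 1 partners, was at 3.78, 0.389 and 0.461 RPKM in fasted Lpin1+/+ and 3.36, 3.31 and 7.72 in fasted Lpin1-/- liver and did not pass (limma adjusted p = 0.0726). Refeeding in Lpin1-/- liver changed 5 of the 13, beside 20.7% of all genes, with Ywhae (0.97 ± 0.19), Ywhab (0.70 ± 0.16), Cnep1r1 (0.67 ± 0.16) and Ctdnep1 (0.62 ± 0.19) higher and Tra2b lower (-0.64 ± 0.17). After rescaling 2 of the 13 passed, and 2 of the 5 calls held whichever library was left out. None of the 13 passed in the feeding comparison of Lpin1+/+ liver or in the interaction in limma, with 3 and 4 at a raw p below 0.05.

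Of the adipocyte and stellate cell markers, Fabp4 and Dcn were higher in fasted Lpin1-/- liver, where Lpin2 was highest, than in fasted Lpin1+/+ liver. The 5 adipocyte markers summed to between 68.6 and 96.2 RPKM in fasted Lpin1-/- and between 10.4 and 18.1 in fasted Lpin1+/+ liver. Nearly all of this sum was Fabp4, while Lep was listed at 0 in all libraries and Adipoq, Plin1 and Cfd were at 0.243 RPKM or below. The 4 stellate cell markers summed to between 185 and 271 RPKM in fasted Lpin1-/- and between 63.3 and 149 in fasted Lpin1+/+ liver, nearly all of it Dcn. The others overlapped between the fasted genotypes. Lrat was between 1.08 and 1.69 against 0.861 and 3.10 RPKM, and Reln between 1.39 and 2.63 against 0.425 and 4.88. Col1a1 was between 0.722 and 3.39 against 0.221 and 0.988 RPKM. Fasted Lpin1-/- replicate 1, the lowest of its group for Lpin2, had the highest sums of the 12 libraries for cholangiocyte markers (21.1 RPKM) and red cell markers (1783 RPKM). Whether the share of any cell type differed, and its part in the lipin values, was not tested.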

How the data were processed

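Liver RNA from 12 mice was sequenced as stranded paired reads. According to the submitters' processing notes the reads were handled with HISAT2 2.0.5 and HTSeq 0.6.0 on GRCm38, and DESeq2 1.20.0 was used for the authors' own expression tests. The authors deposited RPKM per gene and library, without counts, so their count test could not be rerun. For SE events the authors ran rMATS and deposited counts of inclusion and skipping reads, with the lengths of both forms. Their p-values, FDRs and inclusion levels were not used. The order of libraries within a list carries no replicate number. The counts of the Lpin1+/+ lists equalled those of the wild type feeding table in 1523 of 1523 and 1719 of 1719 shared events. All deposited columns used were mapped to a library or group.

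Genes averaging 0.5 RPKM or more over the 12 libraries (11507) entered on the scale log2(RPKM + 1) into 1 limma 3.58.1 fit (R 4.3.3) of 4 groups with a variance trend. Events entered limma as log2 ratios of inclusion over skipping counts, each divided by the length of its form, with 0.5 added to each count and at least 10 counts in every one of the 6 libraries. Benjamini-Hochberg adjustment ran over all genes or all events tested (69644 and 65231), with a threshold of 0.05. The fits were tested on simulated data. Each expression p-value rests on the spread between mice within groups, pooled over the 4 groups. Event p-values rest on that spread pooled over both genotypes of a feeding state. Depth was estimated at 94 M to 125.6 M reads per library. Whole reads of the lipins were recovered from the steps of their RPKM. Figures were drawn with Python 3.11.15 and matplotlib 3.10.9.

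Same-numbered replicates deviated together in each pair only between the refed genotypes (r = 0.186, 0.297 and 0.162), from the values and not from the labels. The members and the gene lists were chosen with earlier results of these data known. Named genes are the lipins, up to 4 called list members of largest change per comparison, the 5 genes most correlated with each lipin (for Lpin1 also over the Lpin1+/+ libraries), lipin events past the threshold and the 3 exons per lipin with the most reads of the rarer form in Lpin1+/+ liver. 1 gene of the fasting list is not reported here. Further list members, Lpin3 exons and marker genes were named after their values were seen. Alternatives covered the pseudocount, filters, scaling, replicate block, variance model, libraries fitted and each library left out.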

Additional observations from a re-analysis of the deposited data

How the results depend on the processing

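Of 442 alternative values of the lipin expression differences, the list counts and the lipin event counts, 378 kept their direction and their side of the threshold (counts: within 1.5 times). With a pseudocount of 0.1, Lpin1 in Lpin1-/- over Lpin1+/+ liver passed after fasting (-4.42) and refeeding (-4.13), 0 enzymes passed in the feeding comparison of Lpin1+/+ liver and 1 in the interaction. Rescaling by the median ratio gave Lpin1 -2.16 after fasting (limma adjusted p = 0.0446), Lpin2 1.24 between fasted genotypes and Lpin3 -0.23 for feeding in Lpin1-/- liver. It gave 5 enzyme calls between refed genotypes, 0 in the feeding comparison of Lpin1+/+ liver and 2 in the interaction, and 2 regulator calls in the feeding comparison of Lpin1-/- liver. Among all calls between fasted genotypes, 29.9% were higher in Lpin1-/- liver, and 46.9% after rescaling. With no filter on low values, Lpin2 for feeding in Lpin1-/- liver (-1.62) no longer passed (limma adjusted p = 0.0778). With only the 6 libraries compared, Lpin1 between refed genotypes (-1.55) passed (limma adjusted p = 0.035). A mean of at least 5 RPKM left Lpin1 and Lpin3 out. For events, a mean of at least 10 counts gave 6 lipin calls after fasting, the additional 3 being Lpin1 exons almost without reads in Lpin1-/- liver, and at least 20 counts in every library gave 0 after refeeding. In 1 fit of all 12 libraries, which covered 8 lipin events, 3 passed after fasting, the Lpin1 144-base exon and the Lpin3 exons of 123 and 93 bases. The causes were not tested.

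With the replicate block, Lpin1 between fasted genotypes (-2.19) passed (limma adjusted p = 0.0493) and 0 enzymes passed in the feeding comparison of Lpin1+/+ liver, and no other lipin call changed. No paired analysis was possible for events because their lists carry no replicate numbers. The block for the enzyme list, and all alternatives of the regulators, the called list members and the named events, and the group means without 1 library, were chosen after seeing the data.

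Leaving out each library in turn moved Lpin1 between -2.92 and -1.05 between fasted genotypes, -1.92 and -1.35 between refed genotypes, -1.42 and 0.45 for feeding in Lpin1+/+ liver, and -0.50 and 1.37 in the interaction. Lpin2 moved between 0.62 and 1.66 between fasted genotypes, -1.83 and -1.50 for feeding in Lpin1-/- liver, and -0.84 and 0.20 for feeding in Lpin1+/+ liver. Lpin3 moved between -0.0173 and 0.21 between fasted genotypes, through -0.00098 without fasted Lpin1+/+ replicate 2, and between -0.11 and 0.13 for feeding in Lpin1-/- liver, with -0.097, -0.0044 and -0.11 among its negative values. Enzyme calls ran from 7 to 11 between fasted genotypes, 4 to 8 for feeding in Lpin1-/- liver, 0 to 1 for feeding in Lpin1+/+ liver and 0 to 1 in the interaction. Regulator calls ran from 1 to 6 between fasted genotypes, 0 to 1 between refed genotypes, 0 to 1 for feeding in Lpin1+/+ liver and 2 to 5 for feeding in Lpin1-/- liver. Lipin event calls ran from 2 to 8 after fasting and were 0 throughout after refeeding, where the number of all events called was 633 in all 6 libraries and 0 to 15 without 1 of them. Of the enzyme calls, 7 of 11 between fasted genotypes, 2 of 3 between refed genotypes and 4 of 7 for feeding in Lpin1-/- liver held whichever library was left out.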
